A study of Mus musculus with 11 samples.

Results

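Ribosomal protein genes and the pseudogenes derived from them were taken from the promoter and gene tables of a methylation study of newborn mouse pancreas. A row was a member if it lay on chromosomes 1 to 19 and its symbol began with Rpl, Rps or Rplp followed by a digit, apart from the Rps6k kinases. This rule found 200 of the 24391 promoters and 170 of the 25802 genes, with 166 members in both tables. Another 14 promoters and 15 genes on the X and Y chromosomes matched the symbols and were left out. Symbols containing -ps made up the pseudogene class, with 117 promoters and 87 genes. All other members formed the functional class of 83 promoters and 83 genes. In it, 10 promoters carried the symbol of a related paralog such as Rpl3l or Rpl22l1. The other 73 were counted as core, with the symbol of a ribosomal protein itself apart from Rps19bp1 and the annotated pseudogenes Rps3a2 and Rps3a3.

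DNA methylation was measured by reduced representation bisulfite sequencing (RRBS), which reads CpGs close to the sites of cutting enzymes, here MspI and TaqI. The 11 wild-type C57BL/6N mice were killed on the day of birth (P0). The dams of 5 of them (3 female, 2 male) had been injected with amphetamine at 10 mg/kg on embryonic days 14.5, 15.5 and 16.5. The 6 control mice (3 female, 3 male) were labelled saline. The dam of each pup was not given, so that pups may share a litter and each p-value measures only the spread between these mice. The tables hold the mean, SD, lowest and highest mouse of each group and no value for a single mouse. A promoter is the window from 1500 bases before to 500 bases after the start, and every level is the mean percentage of methylated calls over mice.

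The ribosome is built from ribosomal RNA and a set of small-subunit (Rps) and large-subunit (Rpl) proteins, all made in strict proportion in every growing cell. Their mRNAs are so abundant in the germ line that they have been copied back into the genome many times. Such a processed pseudogene lacks introns and lands without the promoter of its parent gene. Promoters rich in CpGs (CpG islands) are generally unmethylated at active genes, whereas most CpGs elsewhere in the mammalian genome are methylated.

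The classes held the annotation that their symbols imply, with few exceptions. GENCODE M21 listed 78 of the 83 functional promoters as protein coding and 110 of the 117 pseudogenes as processed pseudogenes. Rps12l2, Rps3a2 and Rps3a3 were processed pseudogenes in this annotation although their symbols place them in the functional class, and Rpl37rt and Rps4l were transcribed processed pseudogenes. Conversely, Rpl36-ps4, Rpl36a-ps1 and Rpl9-ps6 were annotated as protein coding. Rps19bp1, a binding protein of Rps19 and not a subunit of the ribosome, matched the rule by its name, is counted with the core and small-subunit promoters, and had a promoter level of 2.57%. Of the 78 functional members with a CCDS transcript, 76 had the start of such a transcript inside the window. The windows of Rpl13a and Rpl3 lay 7470 and 8462 bases away from it.

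Expression was not measured, so the tissue could be viewed only through methylation. Ptf1a, a transcription factor of the acinar lineage, had a promoter level of 3.56% in controls, while the promoters of the enzyme genes Cel, Pnlip and Cela1 were at 57.2%, 85.0% and 90.3%. Of the liver genes, the Hnf4a promoter was at 44.6% (SD 52.3) and the Serpina1a promoter at 84.4% (SD 22.3). Neither had reads in all mice, and the lower of their mean coverages in controls was 3.83. The SD at Hnf4a exceeded its mean, so that value is no level shared by the mice. In bulk tissue an intermediate level cannot tell apart a methylated share of cells, of alleles or of CpGs. Median coverage of functional promoters was 310.3 in controls and 398 in the amphetamine group. Pseudogene promoters had 62.5 and 79.8, so their levels rest on fewer reads.

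Sequence before the start is shown for 5 members chosen for their levels. The 250 bases before the start are from GRCm38.p6 (mm10), written 5′ to 3′ on the strand of the gene, with each CpG in capitals. Rps6 (chr4:86857413-86857662, minus strand) is shown as a functional promoter with low methylation and Rpl22 (chr4:152325492-152325741, plus strand) as the functional protein-coding promoter with the highest level among core members. Rpl10l (chr12:66284402-66284651, minus strand) is the paralog with the highest level. Rpl30-ps6 (chr1:86473409-86473658, plus strand) and Rpl36-ps1 (chr11:116504286-116504535, plus strand) are pseudogenes at opposite ends of the range.
Rps6: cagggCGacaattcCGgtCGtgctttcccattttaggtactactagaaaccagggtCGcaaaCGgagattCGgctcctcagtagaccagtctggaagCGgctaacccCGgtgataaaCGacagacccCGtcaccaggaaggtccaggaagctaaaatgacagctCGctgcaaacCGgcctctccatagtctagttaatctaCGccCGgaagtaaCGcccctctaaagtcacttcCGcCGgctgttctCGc
Rpl22: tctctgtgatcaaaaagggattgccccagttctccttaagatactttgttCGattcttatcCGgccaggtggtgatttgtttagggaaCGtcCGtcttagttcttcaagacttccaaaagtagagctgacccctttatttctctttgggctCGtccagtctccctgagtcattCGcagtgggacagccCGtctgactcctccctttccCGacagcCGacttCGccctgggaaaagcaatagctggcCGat
Rpl10l: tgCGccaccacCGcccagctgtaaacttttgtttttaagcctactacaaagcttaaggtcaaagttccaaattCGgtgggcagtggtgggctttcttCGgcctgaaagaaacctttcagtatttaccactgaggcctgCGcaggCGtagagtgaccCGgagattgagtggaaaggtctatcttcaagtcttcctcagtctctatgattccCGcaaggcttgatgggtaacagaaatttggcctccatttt
Rpl30-ps6: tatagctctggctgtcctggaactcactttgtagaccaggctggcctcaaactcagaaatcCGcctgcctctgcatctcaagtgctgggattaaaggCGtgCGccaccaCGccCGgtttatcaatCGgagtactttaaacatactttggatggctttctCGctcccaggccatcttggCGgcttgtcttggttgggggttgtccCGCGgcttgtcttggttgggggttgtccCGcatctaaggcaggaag
Rpl36-ps1: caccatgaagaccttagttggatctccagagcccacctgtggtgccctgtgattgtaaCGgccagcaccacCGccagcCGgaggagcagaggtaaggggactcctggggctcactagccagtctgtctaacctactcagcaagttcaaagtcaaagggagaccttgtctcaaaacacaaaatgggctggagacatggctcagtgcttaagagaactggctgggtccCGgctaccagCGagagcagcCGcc
These stretches held 18 CpGs in Rps6, 11 in Rpl22, 8 in Rpl10l, 11 in Rpl30-ps6 and 6 in Rpl36-ps1. In control mice (n = 6) the methylation level of the promoters was 2.28% ± 2.03 (SD) for Rps6, 55.9% ± 8.77 for Rpl22 and 96.5% ± 4.28 for Rpl10l. Among the pseudogenes, Rpl30-ps6 had 13.4% ± 4.02 and Rpl36-ps1 100% in every mouse. In order of rising level the stretches held 18, 11, 11, 8 and 6 CpGs, with Rpl30-ps6 and Rpl22 equal at unlike levels. The 5 members were chosen for their levels, and each level is that of the whole promoter window. No relation between CpG number and level can be drawn from them.

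Functional promoters were lowly methylated and pseudogene promoters highly methylated in newborn pancreas. In controls the median level was 9.31% over the 83 functional promoters (quartiles 2.70% to 18.6%) and 88.2% over the 117 pseudogene promoters (quartiles 77.2% to 94.4%). Under 10% were 46 functional promoters and 1 pseudogene promoter, whereas 9 functional and 109 pseudogene promoters were at 50% or more. Mice of the amphetamine group (n = 5) had medians of 7.17% and 88.4%. These are descriptions over promoters, which are not replicates, and no test was made between the classes.

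Functional promoters were near the level of all promoters and pseudogene promoters far above it. The 23176 promoters on chromosomes 1 to 19 had a median of 6.67%, with 54.5% of them under 10% and 31.4% at 50% or more. Core ribosomal promoters (median 8.50%, 43 of 73 under 10%) had a higher median than several other gene groups. In 22 core promoters no 50-base read starting at a cut site also starts at another cut site of the genome. Their median was 2.21% (18 under 10%), as in all 28 such functional promoters (21 under 10%). This was not above the medians of the other groups, which were not split in this way. The 72 mitochondrial ribosomal protein promoters had a median of 2.66%, 24 promoters of ribosome biogenesis genes 2.51% and 14 promoters of translation factors 2.62%. Of the ribosomal protein genes that the symbol rule missed, Rpsa was at 7.38% and Fau at 16.0%. Pseudogenes of ribosomal proteins resembled other pseudogenes, for which 222 promoters with -ps in the symbol had a median of 83.2% and 1814 other processed pseudogenes of GENCODE one of 84.8%.

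**Figure D1:**
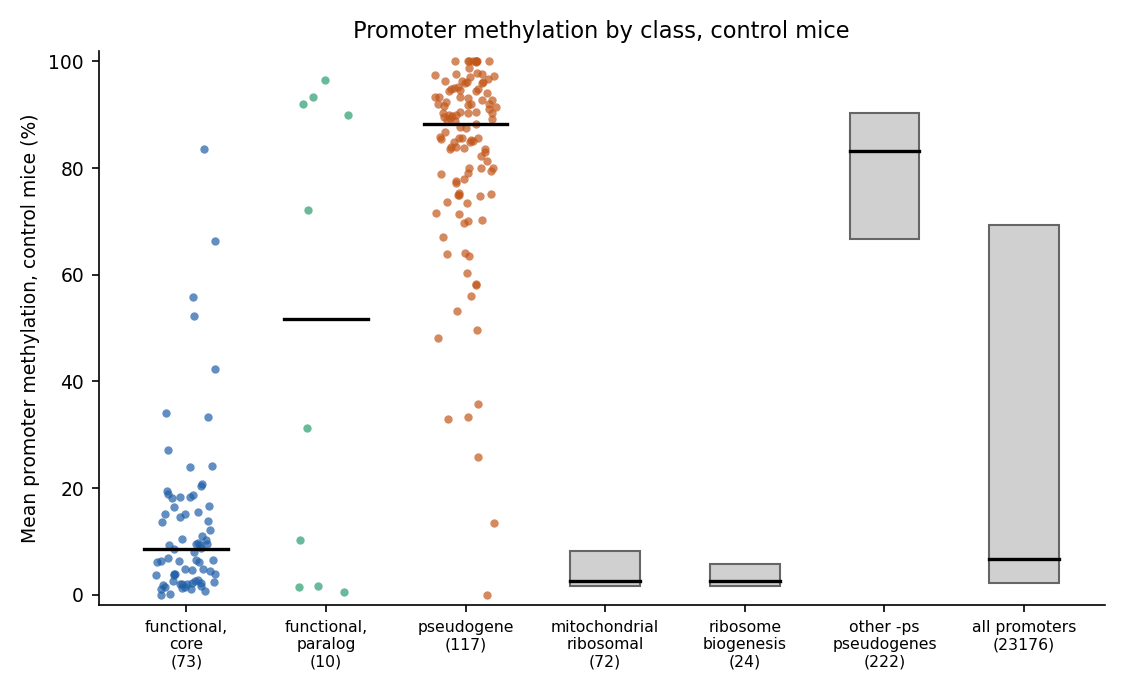
Mean promoter methylation in the 6 control mice (vertical axis, %). Each point is a promoter of the functional core, functional paralog or pseudogene class, grey boxes run from the lower to the upper quartile of comparison groups, black lines are medians and numbers in brackets count promoters. Core promoters lie around 8.50% and pseudogenes around 88.2%, while 3 of the 10 paralogs are under 10% and 5 above 70%.

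Levels were similarly low for both subunits. In controls the median was 8.65% over 30 small-subunit promoters, 8.15% over 40 large-subunit promoters and 3.89% over the 3 stalk proteins. The stalk proteins recruit the factors that drive translation. Among these, Rplp1 had 3.89% ± 4.88 (0 to 13.3% over 6 mice) and Rplp2 1.78% ± 1.42 (0 to 3.69%). Rplp0, the base on which both sit, was higher at 20.8% ± 10.7, with mice from 0.833% to 32.3%. Rplp0 and Rplp1 thus overlapped between their mice.

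Rps6, the subunit phosphorylated by S6 kinases, spanned 0 to 5.86% in controls and had 1.91% ± 2.04 in the amphetamine group. Rpl11, which joins the 5S RNA particle together with Rpl5, had 1.04% ± 1.12 (0 to 2.20%), and Rps12 was at 0 in all 6 control mice. Rpl5 itself had 20.3% ± 5.38 and its lowest mouse, at 14.8%, lay above the highest at Rpl11. That separation is over the whole window, as the CpG islands of both were under 10% in controls (2.18% at Rpl11). Rps19, the subunit most often mutated in the inherited red cell disorder Diamond-Blackfan anaemia, had 8.50% ± 4.4 in controls and 12.0% ± 2.49 in the amphetamine group. Over 10 genes linked to that disorder the median was 10.9%, and 5 of the 10 were under 10%.

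Paralogs were split into low and high promoters. Rps27l, a relative of Rps27 induced by p53, had 0.531% ± 0.707 in controls, Rpl22l1 1.5% ± 1.92 and Rpl36al 1.63%. At the high end Rpl10l, an intronless copy used in the testis, had 96.5% ± 4.28 (88.9 to 100%). Rps12l2 had 93.4% ± 7.40, Rpl39l, another testis-expressed relative, 92.1% ± 4.48, Rpl37rt 90.0% ± 8.89 and Rpl3l, the muscle form of Rpl3, 72.1% ± 13.5. Between these lay Rpl7l1 at 31.2% ± 8.98 and Rps4l at 10.3% ± 10.4. All 6 control mice at Rpl3l (50 to 86.1%) were above the 6 at Rpl3 (5.74 to 22.7%), whose window lay 8462 bases from its CCDS start. All control mice at Rpl22l1 (0 to 4.80%) were below those at Rpl22 (43.8 to 68.0%). This contrast is over the whole window, as the CpG islands of both promoters were under 10% in controls.

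The functional class also held promoters at intermediate levels. Among core members, 26 were between 10% and 50% and 4 at 50% or more. The last group comprised Rps3a2 at 83.5% ± 9.08 and Rps3a3 at 66.3% ± 17.9, both processed pseudogenes by annotation, Rpl22 at 55.9% ± 8.77 and Rps10 at 52.3% ± 11.2 (37.5 to 68.1%). Rpl23a followed with 42.4% ± 5.01 and Rps29 with 34.0% ± 23.9. Rps29 was the most variable of these, with control mice from 4.6% to 76.8%. Rpl41, Rpl35, Rpl21, Rps20, Rpl38, Rpl7a, Rpl37a, Rps24, Rpl29 and Rpl13a had means between 16.4% (Rpl13a) and 27.2% (Rpl41). Lower still were Rps14, Rpl3, Rpl31, Rpl24, Rpl15, Rpl18, Rps7, Rpl12, Rps28 and Rpl4, from 15.6% for Rps14 to 10.3% for Rpl4. Of these promoters, the windows of Rpl13a and Rpl3 lay away from the CCDS start of the gene.

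Many of these intermediate promoters contained a CpG island that was itself lowly methylated. A CpG island row overlapped 66 of the 73 core promoters, and its control level had a median of 2.19% with 53 of the 66 under 10% and none above 25%. Of all 14428 islands on chromosomes 1 to 19, 88.9% were under 10%. Among the 30 core promoters at 10% or more, 24 had an island and 14 of these islands were under 10%. Rpl22, at 55.9% over the promoter, had an island level of 0.952%, although 35 of the 54 CpGs within 50 bases of a cut site lay in the island. The Rpl23a and Rpl41 islands were both at 0 in controls, that of Rplp0 at 0.509%, that of Rpl5 at 1.72% and that of Rpl35 at 1.75%. In contrast, island and promoter were close together at Rpl37a (15.6% and 18.4%) and equal at Rpl7a (18.4%). Rps10 and Rpl13a had no island, and the Rpl13a window lay 7470 bases from its CCDS start.

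**Figure D2:**
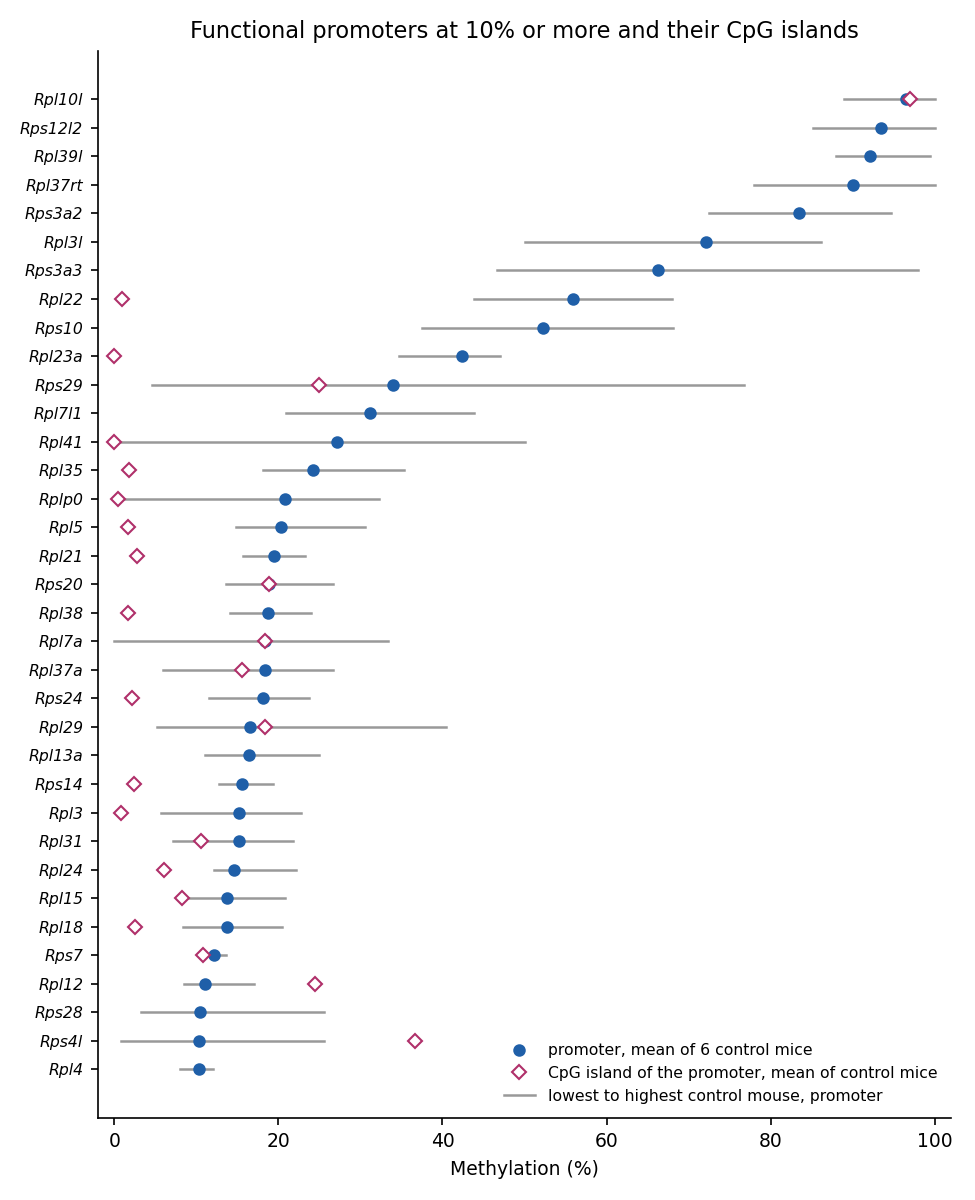
Functional promoters with a mean of 10% or more in the 6 control mice, apart from 2 that are not reported here. Filled circles are promoter means, grey lines run from the lowest to the highest control mouse, and open diamonds are the mean of the CpG island in the promoter where there is one (horizontal axis, methylation in %). At Rpl22 the island is at 0.952% and the promoter at 55.9%, whereas at Rpl10l both are above 96%.

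Core promoters had a higher median level where 25% or more of their readable CpGs lay outside the island. Among the 66 with an island, the promoter median was 5.39% in 16 promoters with under 10% of their readable CpGs outside it, 4.82% in 29 promoters with 10% to 25% and 15.2% in 21 promoters with 25% or more (Spearman's rho 0.373 across genes, as a description). A second property moved with the level. A read of 50 bases starting at a cut site was counted as repeated where its bisulfite-converted sequence also starts at another cut site of the genome. The median was 2.21% in the 22 core promoters without a repeated read end, 8.44% in 34 promoters with 1 to 3 and 18.4% in 17 promoters with 4 or more (rho 0.591, n = 73). Repeated ends made up 8.33% of 1944 read ends in functional promoters and 40.0% of 1042 in pseudogene promoters. Rpl22 and Rps10 had none, so their levels were not accompanied by repeated ends. The part of repeated sequence in these levels was otherwise not tested.

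The classes differed in median CpG number but overlapped in range. The median was 83 CpGs per 2000 bases in core promoters, 61.5 in paralogs, 30 in pseudogenes and 59 over all promoters, with ranges of 24 to 191 in core members, 16 to 178 in paralogs and 11 to 61 in pseudogenes. The ratio of observed to expected CpGs had medians of 0.627 in core members and 0.295 in pseudogenes, and a CpG island was present in 90.4% of core and 5.13% of pseudogene promoters (55.4% of all). For comparison, 4179 other promoters with 69 to 91 CpGs, the middle range of the core members, had a median level of 2.85%, and 3975 others with 23 to 36 CpGs, that of the pseudogenes, 75%. The medians of core members (8.50%) and pseudogenes (88.2%) were above these, but that of the 22 core promoters without a repeated read end (2.21%) was below 2.85%. The other promoters were not split by repeated read ends. Within a class CpG number and level were weakly related (rho −0.162 over 73 core and −0.130 over 117 pseudogene promoters, as a description).

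**Figure D3:**
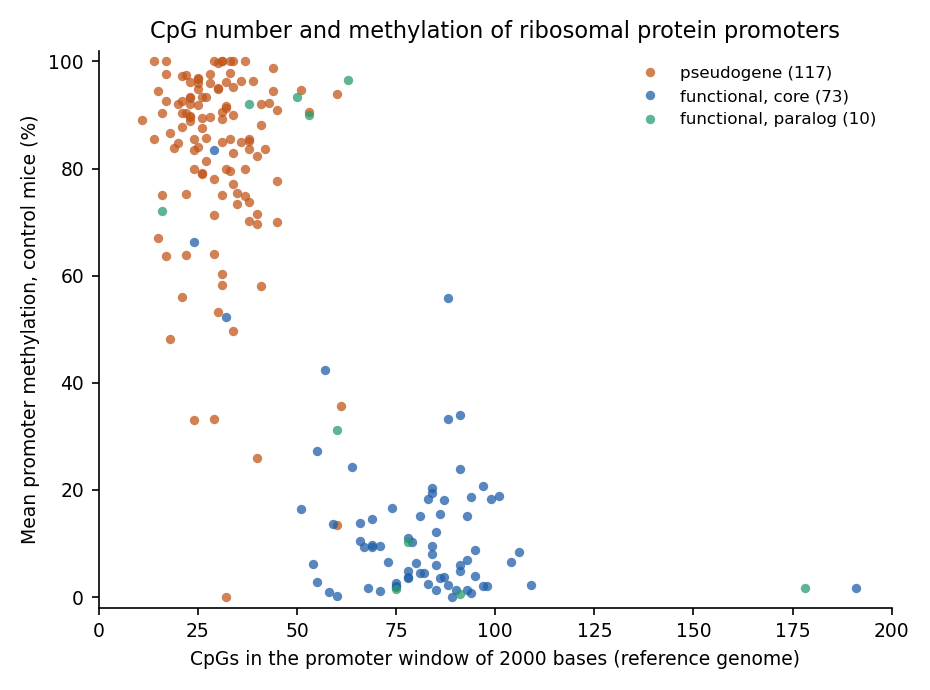
Number of CpGs in the promoter window of 2000 bases in the reference genome (horizontal axis) against the mean promoter methylation of 6 control mice (vertical axis, %). Each point is a promoter, coloured by class. Pseudogenes (median 30 CpGs) fill the upper left and core members (median 83 CpGs) the lower middle, with Rpl22 at 88 CpGs and 55.9% standing above the other core members of that CpG number.

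Motifs were searched on both strands from 250 bases before to 50 after the start. The letters CCGGAAG, the core bound by ETS factors, were found in 27.7% of functional promoters, 6.84% of pseudogene promoters and 11.9% of all promoters. The GC box GGGCGG, the motif of Sp factors, was in 43.4%, 7.69% and 45.6%, and TATAAA in 10.8%, 20.5% and 10.4%. AAGATGGCG, the core of the YY1 motif, was in 4.82%, 5.13% and 2.0%. A run of 8 or more C or T within 10 bases of the start, as in the terminal oligopyrimidine tract of ribosomal protein mRNAs, was in 12.0%, 2.56% and 7.06%. Of the printed stretches, Rps6 held 1 ETS core and Rpl10l 1 GC box, and the other 3 held none of the 4 motifs. CCGGAAG and AAGATGGCG share the letters AAG and can overlap. A match is a description of the letters alone.

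Nearly all pseudogenes were more methylated than the gene they were copied from. The parent was taken as the symbol before -ps. For 110 pseudogenes the parent was among the promoters, with 38 different parents, and the pseudogene had the higher mean in 109 of the 110 pairs in controls and in 109 in the amphetamine group. The median difference in controls was 76.6 percentage points (quartiles 65.0 to 85.5). In 91 pairs every mouse with reads was higher at the pseudogene than any mouse at the parent. Of the 82 pairs with reads in all 11 mice at both promoters, this held for 74. The exception was Rpl27-ps2, at 0 in both groups with a mean coverage of 1 in controls and reads in only 3 control and 4 amphetamine mice.

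Families with several copies showed how far the copies spread. The 10 Rpl21 pseudogenes had a median of 84.2% and ranged from 33.0% (Rpl21-ps9) to 90.4% (Rpl21-ps10), with the parent at 19.5% ± 2.99. For Rpl31 the 9 copies had a median of 92.0%, from 25.9% to 100%, and the parent 15.2% ± 5.64. The 9 copies of Rps19 were between 67.0% and 97.6% and the parent at 8.50%. Among the 5 Rpl30 copies Rpl30-ps6 had 13.4% and Rpl30-ps3 100%, while Rpl30 itself was at 1.07% ± 0.880. The lowest Rpl23a copy, Rpl23a-ps1 at 48.1% ± 18.3 (32.6 to 83.3%), overlapped its parent Rpl23a (42.4%, 34.7 to 47.0%) in controls.

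**Figure D4:**
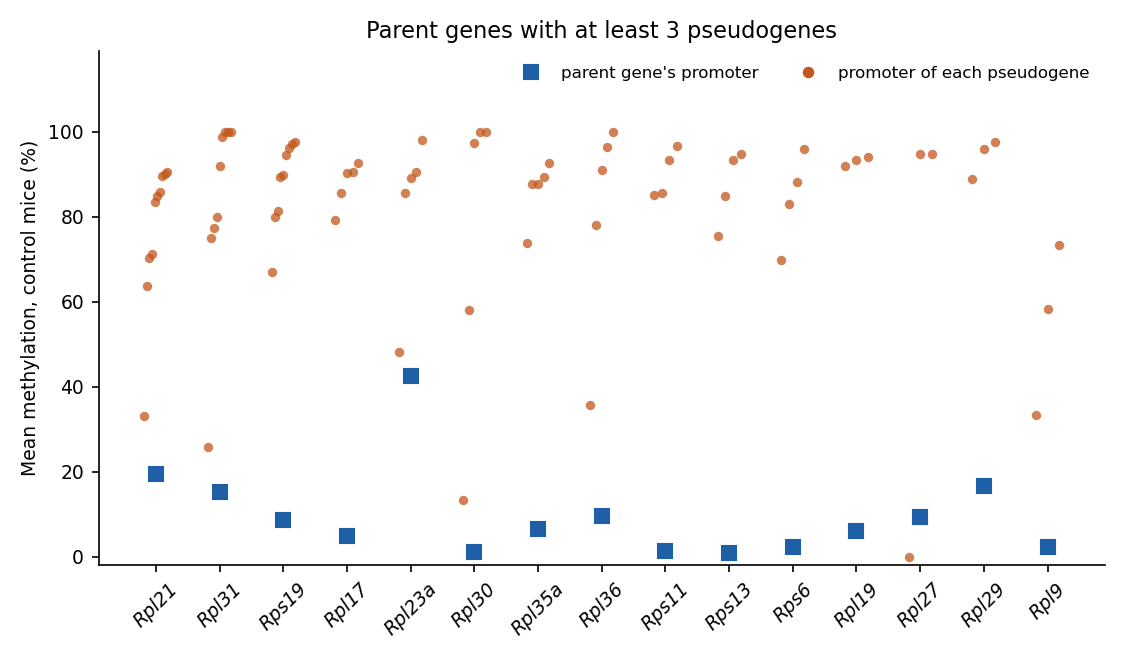
Mean methylation in the 6 control mice (vertical axis, %) for ribosomal protein genes with at least 3 pseudogenes and a measured promoter. Squares are the parent promoter and circles the promoters of its pseudogenes. Every circle is above its square except Rpl27-ps2 at 0, and Rpl30-ps6 at 13.4% and Rpl31-ps17 at 25.9% are the next lowest.

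Of the 84 pseudogene promoters with reads in every mouse and a coverage of 10 or more in each group, the lowest were Rpl30-ps6, Rpl31-ps17, Rpl21-ps9, Rpl36-ps8 and Rpl23a-ps1. Rpl30-ps6 had 13.4% ± 4.02 (9.33 to 20.2%) in controls and 23.0% ± 12.8 (11.1 to 40.0%) in the amphetamine group. It held 60 CpGs, near the pseudogene maximum of 61, but no CpG island row. Rpl31-ps17 varied more, at 25.9% ± 23.2 with control mice from 0 to 62.5%. Rpl21-ps9 was at 33.0% ± 12.1 with a mean coverage of 13.8, and Rpl36-ps8 at 35.7% ± 11.1 with 61 CpGs. At the high end were Rpl36-ps1 and Rpl30-ps3, both at 100% in all control mice, Rpl31-ps10 at 98.8% ± 2.54, and Rpl29-ps2 and Rps19-ps4, both at 97.6%.

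Islands at pseudogenes were methylated. Of the 6 pseudogene promoters with an island, none was under 10% and 5 islands were at 50% or more, with a median of 85.2% in controls. In 5 of the 6 the island and the promoter had equal control levels, so these islands are no separate measurement. The Rpl36-ps2 island was at 96.4% ± 2.05, that of Rpl36-ps3 at 91.0% ± 1.96 and that of Rpl28-ps1 at 77.6% ± 4.10. The Rpl10a-ps1 island was at 100% in controls on a coverage of 12.3. Rps26-ps1 had 79.5% ± 39.2, with the lowest control mouse at 0, and Rpl36-ps8 was the exception at 35.7% ± 11.1. At the parents, the islands of Rpl36, Rpl10a and Rps26 were at 6.49%, 1.38% and 7.52%, and that of Rpl28 was higher at 20.3%.

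Most copies held fewer CpGs per 100 bases than the parent transcript, taken as the longest coding one of the parent. Over 115 pseudogenes with a parent transcript in the annotation, the median was 2.94 CpGs per 100 bases in the retrocopy and 3.47 in the parent transcript, and 73 of the 115 had fewer than the parent. The observed to expected ratio was 0.465 against 0.594. A single exon was annotated for 111 pseudogenes and 9 functional members. An intron of another gene contained 38 pseudogenes and 5 functional members, and another gene started within the window of 1 pseudogene and 19 functional promoters.

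Levels over the gene body followed the same order. The median in controls was 12.0% for 74 core genes, 75.9% for 9 paralogs and 89.4% for 87 pseudogenes, against 51.3% for all 24521 genes on chromosomes 1 to 19. Core genes were short, with a median length of 3306 bases against 15188 for all genes, and 2032 genes within the quartiles of that length had a median level of 33.2%. Of the 82 functional members in both tables, the gene was above the promoter in 45, below in 35 and equal in 2. For pseudogenes, 36 of the 84 members in both tables had equal values in both, so the gene table is no separate measurement of these.

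Prenatal amphetamine was compared with control to ask whether methylation of these genes differed in the offspring. No member differed at an adjusted p under 0.05 by limma's moderated test, run on group means and SDs over all promoters with Benjamini-Hochberg adjustment. Of the 200 promoters 196 could be tested, with 0 called and a smallest adjusted p of 0.952. Over all 23627 promoters tested 0 were called as well (0%). An unadjusted p under 0.05 was seen in 10 of the 196 (4 functional, 6 pseudogene), or 5.10%, and in 4.06% of all promoters. Groups did not overlap for 0 of 171 ribosomal promoters with reads in all mice, with a background of 0.395%. Of the functional promoters 40 had a higher and 43 a lower mean after amphetamine, with a median difference of −0.117 percentage points. For pseudogenes 53 were higher and 60 lower, with a median of −0.143. The absolute difference had a median of 1.44 points in functional and 4.65 in pseudogene promoters, beside 1.79 over all promoters.

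The functional promoters with the smallest unadjusted p-values were Rpl30, Rps12l2 and Rps7, each with an adjusted p of 0.952 by limma. Rpl30, a large-subunit protein, had 1.07% ± 0.880 (0 to 2.15%) in controls and 3.79% ± 1.38 (2.07 to 5.49%) in the amphetamine group, a difference of 2.72 points (SE 0.790). The groups overlapped between 2.07% and 2.15%. Rps12l2 had 93.4% ± 7.40 (85.2 to 100%) and 72.6% ± 17.1 (55.4 to 91.3%), a difference of −20.9 points (SE 7.40). For Rps7 the means were 12.2% ± 1.36 (10.4 to 13.6%) and 7.09% ± 3.23 (4.08 to 10.5%), with a difference of −5.15 points (SE 1.83). For both of these the groups overlapped. Rpl3 had 15.2% ± 6.78 and 26.3% ± 7.26 in a window away from its CCDS start.

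Among pseudogene promoters Rpl9-ps4 and Rpl38-ps1 had the smallest unadjusted p-values. Rpl9-ps4 had 33.3% in controls and 100% after amphetamine, on 3 mice with reads in each group and a mean coverage of 0.833 and 1.6. Rpl38-ps1 had 95.2% ± 11.2 (72.2 to 100%) and 78.4% ± 8.37 (72.8 to 93.2%). Its groups overlapped, and the adjusted p by limma was 0.952 for each of these pseudogenes.

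**Figure D5:**
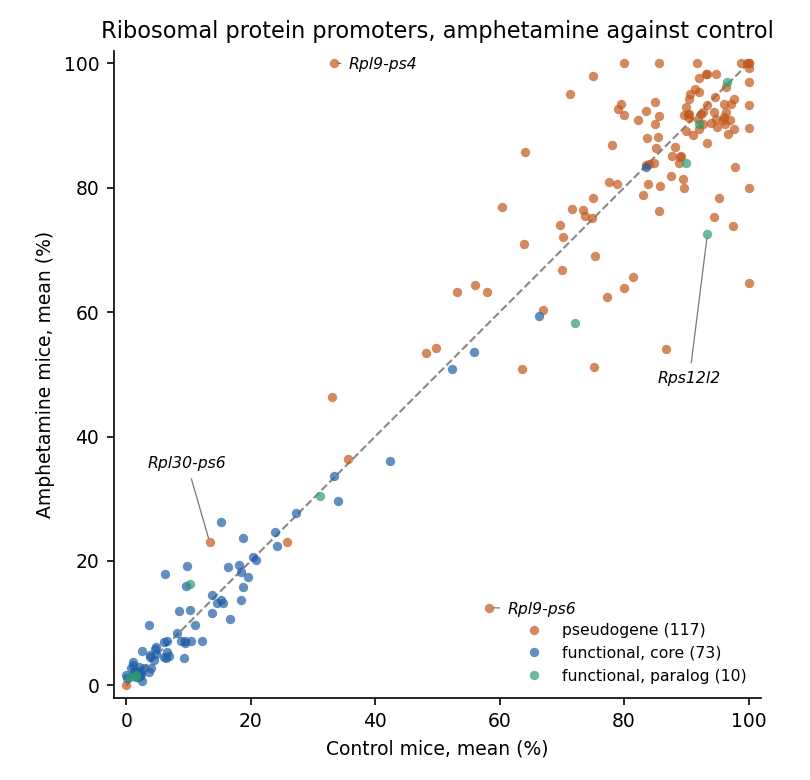
Mean promoter methylation of the 5 amphetamine mice (vertical axis, %) against the 6 control mice (horizontal axis, %). Each point is a ribosomal protein promoter, coloured by class, and the dashed line marks equal levels. Points follow the line, and the labelled ones away from it include Rpl9-ps4 and Rpl9-ps6, whose mean coverage was between 0.833 and 1.6, and Rps12l2 at 93.4% and 72.6%.

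Over genes the comparison gave the same picture. Of the 170 genes 162 could be tested, 0 were called by limma (background 0%) and the smallest adjusted p was 0.987. An unadjusted p under 0.05 was seen in 7, or 4.32%, against 4.05% of all 25352 genes, and groups did not overlap for 0 of 138 against 0.312% of all. Rps7 had 20.7% ± 2.04 (18 to 24.0%) in controls and 15.4% ± 2.94 (11 to 18.9%) after amphetamine, and Rps25 36.5% ± 7.11 and 28.2% ± 2.53. The Rpl30 gene had the same levels as its promoter. Of the pseudogenes, Rpl9-ps4 rested on the thin coverage given above, Rpl23a-ps3 had 97.9% ± 4.59 (5 mice with reads) and 83.3% ± 11.7 (3 mice with reads), and Rpl35a-ps6 90.9% ± 10.2 and 76.7% ± 12.7.

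Female and male pups (6 and 5) were compared in the same way, with both treatments in each sex. No ribosomal promoter was called, 0 of 196 against 0.603% of all 23550 promoters, a background that includes the sex chromosomes. An unadjusted p under 0.05 was seen in 3 of the 196 against 6.09% of all, and sexes did not overlap for 0 of 171 against 1.55%. Rpl10a had 0.801% ± 0.476 in females and 3.17% ± 1.40 in males (limma adjusted p = 0.371). Rps27a, which is made as a fusion with ubiquitin, had 7.97% ± 4.67 and 1.30% ± 2.91 (limma adjusted p = 0.520). Over genes 0 of 162 were called against 0.399%, with 7 at an unadjusted p under 0.05 against 6.23% and 0 of 138 without overlap against 1.03%. Rpl17-ps5 had 88.4% ± 2.93 in females and 79.7% ± 6.43 in males and Rpl37rt 83.0% ± 4.76 and 91.6% ± 5.21, with limma adjusted p of 0.630 and 0.649.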

How the data were processed

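DNA of 11 P0 pancreata was digested with MspI and TaqI and read by RRBS in single-end 50-base mode. The authors ran Bismark (build mm10) through methylseq in NextFlow and summarised CpGs per region in RnBeads. The labels also name limma and methylKit, without versions. The authors deposited 8 tables, and 6 of them were used. Each gives, for a group, the methylation level as a fraction (printed as percent) averaged by the authors over mice with reads, its SD, lowest and highest mouse and the number of mice without reads. Mean coverage per group is deposited as a signal averaged over mice. How it is summed over CpGs is not given in the sources used here. No value per mouse was used. Columns of the authors' own comparisons (differences, quotients, p-values, false discovery rates and ranks) were not used.

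Group means, SDs and mouse numbers entered limma 3.58.1 (R 4.3.3): pooled variances were moderated toward a prior trended on mean methylation, tested two-sided and adjusted by Benjamini-Hochberg over the whole table. A region needed reads in at least 3 mice of each group and a pooled SD above 0. Groups did not overlap where the lowest mouse of either group exceeded the highest of the other, with reads in all 11 mice. The procedure was tested on simulated data with normally distributed levels, large shifts and reads in every mouse. It therefore does not show how small shifts in these bounded levels would be called. Python 3.11.15, pandas 2.3.3 and numpy 2.4.6 gave counts, medians and sequence features from GRCm38.p6 and GENCODE M21. On all 21 chromosomes the tiles were within the reference length, and 161 of 198 annotated windows matched the GENCODE gene start exactly.

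Members and lists were chosen with earlier results of these data known. Named were all functional promoters at 10% or more, a fixed list of well-known members, the 5 lowest and 5 highest pseudogenes, the 3 smallest treatment p-values of each class and table, and the 2 smallest for sex. The lowest functional promoters, paralogs, islands, pairs and Rps19bp1 were added after their values were seen. Some genes that the rule names are not reported here.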

Additional observations from a re-analysis of the deposited data

How the results depend on the processing

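No ribosomal protein promoter or gene was called for treatment with another or no prior variance, reads in all 11 mice, coverage of at least 10, or chromosomes 1 to 19 alone. For sex, none was called with another prior variance or coverage of at least 10, the alternatives run there. At an unadjusted p under 0.05 the treatment comparison had 10 promoters and 7 genes. In the 28 functional promoters without a repeated read end, an alternative chosen after seeing the data, the median was 2.21% in place of 9.31%, and 21 of the 28 were under 10%, where 46 of all 83 were. The single pseudogene under 10%, Rpl27-ps2, dropped out with coverage of at least 10 (0 of 104) or reads in all mice (0 of 88), and 2 were under a threshold of 20%. Leaving out single mice and adding sex as a covariate were not run, since the tables used hold group summaries only. The labels pair no mice between the groups, so no paired analysis was run. Coverage limits the pseudogenes most, with 104 of 117 at 10 or more in both groups against 83 of 83 functional promoters.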
